A study of Ananas comosus with 78 samples.

Results

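Shoot apices of pineapple, Ananas comosus, collected on day 4 after ethephon were compared with shoot apices collected on the same day after water. Ethephon breaks down in plant tissue and releases ethylene. The comparison holds 6 of the 78 libraries of the series, 3 for each treatment, and its members were taken from the sample titles that place a stem apex of treated or untreated plants at d.a.t. 5. The titles number the 8 apex samplings from 1, the first of them was made at 6 h, and d.a.t. 5 is therefore called day 4. Ethephon apices came from field-grown plants that received 50 mg of ethephon in 10 ml of liquid poured into the center of the plant, and water apices came from plants of the same commercial field that received 10 ml of water. The labels give the cultivar once as MD1 and once as MD2, with the hybrid name PRI 73-50. A library was made from the pooled apices of 3 plants, so the spread between libraries is the spread between pools.

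Pineapple is unusual among crops in that ethylene starts flowering, and growers apply ethephon to make a whole field flower together. Ethylene is made from S-adenosylmethionine by ACC synthase and ACC oxidase. It is bound by receptors that otherwise hold the kinase CTR1 active, and the signal then passes through EIN2 to the EIN3 transcription factors and to the large AP2/ERTF family of ethylene response factors. At the shoot apex, meristem genes such as WUSCHEL and the KNOTTED homeobox genes keep a pool of dividing cells. In Arabidopsis the mobile protein FLOWERING LOCUS T (FT) and MADS-box genes such as FRUITFULL (FUL) turn that meristem from making leaves to making flowers, and TERMINAL FLOWER, a relative of FT, opposes the change.

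The deposited values were read counts for 27024 genes. Total counts were 5005046, 2675086 and 8303406 in the ethephon libraries and 5727270, 4957446 and 5133619 in the water libraries. Levels are given as CPM, read counts scaled to the library total and corrected with TMM factors over the 6 libraries. A difference is given as a log2 fold change of ethephon over water with its standard error, from the quasi-likelihood test of edgeR, and p-values were adjusted by Benjamini-Hochberg across the 21742 genes with a count. DE stands for an adjusted p under 0.05 together with a 2-fold or larger change. The libraries of one treatment resembled each other more (correlation of log2 CPM 0.977 to 0.979 among ethephon and 0.983 to 0.984 among water libraries) than those of different treatments (0.943 to 0.956). All 3 water libraries were sequenced in 1 lane and the ethephon libraries in 3 other lanes, so lane and treatment cannot be told apart in this comparison.

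Ethephon changed 1230 genes, or 5.66% of those tested. Of these, 768 were up-regulated (3.53%) and 462 down-regulated (2.12%). At least a 4-fold change was found for 204 up-regulated and 77 down-regulated genes. The ethephon and water libraries did not overlap for 722 of the up-regulated and 447 of the down-regulated genes, while over all genes tested they did not overlap for 38.6%. Every water library held 3 counts or fewer for 84 of the up-regulated genes, and every ethephon library did so for 51 of the down-regulated ones. The up-regulated genes had a single exon in 21.5% of cases, against 10.8% of the down-regulated genes and 11.3% of all genes tested. Among the 445 genes of the lists described here, 74 rose and 17 fell. Apart from the lists drawn from annotation, members are genes that the study named, many of them as DE in these same libraries. A list share above that of all genes was thus partly set by this choice.

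The water apices of day 4 were not like those of the next day. Although both sets were sequenced in the same lane, 893 genes differed between water apices of day 5 and water apices of day 4 (4.09% of 21857 tested). Between water apices of day 6 and day 5, sequenced in different lanes, 5 genes differed (0.0227% of 22012). For this reason most groups of genes are also given with the water libraries of day 5 in place of those of day 4. This exchange was chosen after the data were seen. The exchange sets ethephon apices of day 4 against water apices of the next day, so day and treatment cannot be told apart in it. With it, 812 genes were up-regulated and 522 down-regulated. They included 311 (40.5%) of the up-regulated genes and 146 (31.6%) of the down-regulated genes of the day 4 comparison, and 18 genes were called in the opposite direction. Every fold change of day 4 given below rests on these 3 water libraries, and whether they differ through their collection or their labels was not tested.

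The genes of flowering time and floral identity held the gene with the highest fitted change of all genes tested. Of 42 members tested, 13 rose and 2 fell, which is 31% and 4.76%, against 3.53% and 2.12% of all genes. The median log2 fold change was 0.29 against -0.02 over all genes. MADS-box AcFUL2 (Aco012428, LG01 from 2127109 to 2132551, minus strand, build Acomosus_321_v3), a homolog of FUL, had 58.4, 46.3 and 51.7 CPM in ethephon apices and 0, 0 and 0 CPM in water apices. It had 286, 123 and 407 reads in the ethephon libraries and no read in any water library. Set against the level that 3 counts in a water library would give, it was at least 88.8-fold higher (adjusted p = 1.31e-19). MADS-box AcFUL1 (Aco004839, LG07 from 217862 to 228880, minus strand) had 34.3, 39.6 and 38.0 CPM in ethephon apices and 1.35, 1.37 and 0.57 CPM in water apices. Its log2 fold change was 5.04 ± 0.24 (SE, adjusted p = 1.31e-17), or 32.9-fold. The 2 treatments were far apart for both genes in all 6 libraries. The exons of AcFUL1 overlap those of Aco004840, which also rose, and the counting did not use strand. Both genes were called again with the water libraries of day 5, with AcFUL1 at 5.27.

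**Figure D1:**
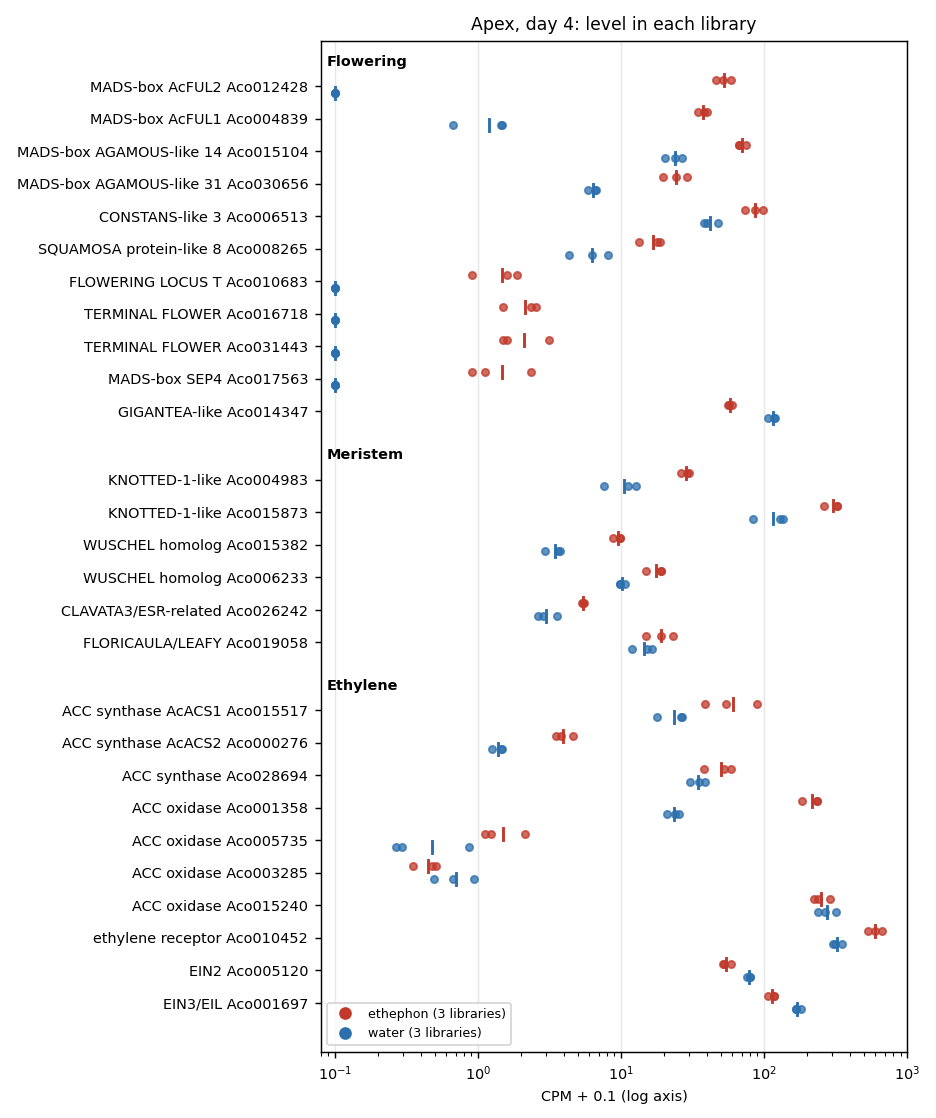
Level of flowering, meristem and ethylene genes in each of the 6 apex libraries of day 4, as CPM + 0.1 on a log axis. Each point is 1 library, the upright bar is the mean of the 3 libraries of a treatment, and points at 0.1 are libraries with no read. The ethephon libraries lie to the right of every water library for the 10 flowering genes above GIGANTEA-like, and AcFUL2, FT, both TERMINAL FLOWER genes and SEP4 have no read in water apices.

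FT and its relatives appeared at low levels. FLOWERING LOCUS T (Aco010683, LG10 from 2719710 to 2722067) had 0.82, 1.51 and 1.78 CPM in ethephon apices and 0, 0 and 0 CPM in water apices, which rests on 4, 4 and 14 reads. It was at least 2.33-fold higher (adjusted p = 0.00068). The second FT gene, Aco010684, had no count in any of the 6 libraries. One of the TERMINAL FLOWER genes, Aco016718, had 2.45, 2.26 and 1.40 CPM in ethephon apices and none in water apices, and was at least 3.47-fold higher (adjusted p = 8.91e-05). The other, Aco031443, had 3.07, 1.51 and 1.40 CPM in ethephon apices and none in water apices, and was at least 3.39-fold higher (adjusted p = 9.43e-05). Reads that map to several places were counted, and whether both genes hold some of the same reads was not tested. In the day 5 comparison Aco016718 had a log2 fold change of 1.77 and was not called, while Aco031443 was called at 4.28. Water apices of day 5 had 0.34, 0.72 and 0.34 CPM of Aco016718. MADS-box SEP4 (Aco017563), a partner of other MADS-box proteins in the floral meristem of Arabidopsis, had 0.82, 2.26 and 1.02 CPM in ethephon apices and none in water apices, at least a 2.32-fold difference (adjusted p = 0.0018). The fitted log2 fold changes of these 4 genes and of AcFUL2 depend on the prior count of the fit and are no bounds. FLOWERING LOCUS T and SEP4 were not called by DESeq2. All 4 were called again with the water libraries of day 5.

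Other members rose by less and from a level that water apices also had. MADS-box AGAMOUS-like 14 (Aco015104) had 75.0, 66.7 and 67.2 CPM in ethephon apices and 20.4, 23.9 and 26.8 CPM in water apices (log2 fold change 1.56 ± 0.12, adjusted p = 5.94e-12). MADS-box AGAMOUS-like 31 (Aco030656) had 24.3, 28.6 and 19.6 CPM in ethephon apices and 6.56, 6.47 and 5.74 CPM in water apices (1.91 ± 0.19, adjusted p = 2.10e-09). SQUAMOSA protein-like 8 (Aco008265), of the SPL family that promotes the adult and flowering phases, had 13.3, 17.7 and 18.8 CPM in ethephon apices and 6.23, 8.03 and 4.21 CPM in water apices (1.43 ± 0.22, adjusted p = 5.36e-06). No library overlapped between the treatments for these 3 genes, and all 3 were called again with the water libraries of day 5. CONSTANS-like 3 (Aco006513), of the family of CONSTANS, the day-length regulator of FT in Arabidopsis, was just past the limit at 1.05 ± 0.12 (adjusted p = 1.29e-08). It lost the call without ethephon replicate 3 (0.93) and without water replicate 3 (0.99). The NAC domain gene Aco000744 (1.28) and EARLY FLOWERING-like Aco009476 (1.07) also rose, the second not without ethephon replicate 3 (0.82). Against the water libraries of day 5, CONSTANS-like 3 (0.91) and Aco000744 (0.96) were not called. A further NAC domain gene, Aco011880, had under 1 CPM in every ethephon library and none in water apices, was at least 1.16-fold higher in ethephon apices, and lost the call without ethephon replicate 3 or water replicate 1 and with the water libraries of day 5 (adjusted p = 0.057).

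Of the flowering genes 2 fell, and neither call held in every setting. GIGANTEA-like (Aco014347), a clock gene that acts before CONSTANS in Arabidopsis, had 59.7, 56.1 and 56.4 CPM in ethephon apices and 107, 120 and 118 CPM in water apices. Its log2 fold change of -1.0004 ± 0.10 (adjusted p = 1.15e-09) sat at the 2-fold limit, and leaving out any of 4 of the 6 libraries took it to between -0.98 and -0.97. It had -0.27 (adjusted p = 0.092) with the water libraries of day 5. UNUSUAL FLORAL ORGANS (Aco008339), which works with LEAFY in flower formation, rested on at most 3 reads in an ethephon library, and leaving out any of 5 libraries ended its call, as did the water libraries of day 5 (0.71). Of the 5 SOC1 homologs, which in Arabidopsis integrate flowering signals, none was called. AcSOC1c (Aco015492) had 42.7, 36.9 and 38.4 CPM in ethephon apices and 72.9, 59.4 and 71.2 CPM in water apices, a log2 fold change of -0.78 ± 0.11 (adjusted p = 2.00e-06) that did not reach 2-fold. The other 4 SOC1 homologs lay between -0.39 and 0.21, and the 5 CONSTANS and CONSTANS-like genes not called lay between -0.19 and 0.36. FLORICAULA/LEAFY (Aco019058), the regulator of floral meristem identity, had 19.004, 22.98 and 14.99 CPM in ethephon apices and 11.8, 15.1 and 16.5 CPM in water apices (0.35 ± 0.18, adjusted p = 0.16). The list held 12 up-regulated members and 1 down-regulated member against the water libraries of day 5.

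Of 6 markers of the apical meristem, 3 rose (50%, against 3.53% of all genes) and none fell. The ethephon libraries lay above the water libraries for 5 of them. This pattern was seen in 18.5% of all genes tested, while ethephon libraries lay below water libraries in 20.1%. The summed level of the 6 markers was 347 to 411 CPM in ethephon apices and 118 to 177 CPM in water apices. None of the 6 was at 0 in any library. Most of that sum came from the KNOTTED-1-like gene Aco015873, which had 264, 326 and 325 CPM in ethephon apices and 83.3, 135 and 128 CPM in water apices (log2 fold change 1.40 ± 0.12, adjusted p = 6.14e-11). The second KNOTTED-1-like gene, Aco004983, had 29.6, 29.0 and 26.04 CPM in ethephon apices and 7.57, 11.2 and 12.6 CPM in water apices (1.43 ± 0.17, adjusted p = 7.72e-08). The WUSCHEL homolog Aco015382 had 9.81, 8.67 and 9.78 CPM in ethephon apices and 2.86, 3.53 and 3.64 CPM in water apices (1.51 ± 0.26, adjusted p = 2.96e-05). A second WUSCHEL homolog, Aco006233, and the CLAVATA3/ESR-related gene Aco026242, which restricts WUSCHEL in Arabidopsis, stayed under 2-fold at 0.79 and 0.89. In bulk tissue, more cells of a type and more RNA per cell cannot be told apart, and the part of the meristem markers in the other results was not tested. The 13 plastid and photosynthesis genes came from the annotated part of the study's gene table that was used here. They were level, with a sum of 344 to 346 CPM in ethephon apices and 346 to 351 CPM in water apices. Neither edgeR nor DESeq2 called a member, and 3 had an unadjusted p under 0.05 in edgeR, against 7944 of all 21742 genes tested. With the water libraries of day 5, both KNOTTED-1-like genes fell under the limit, at 0.65 and 0.57, while the WUSCHEL homolog Aco015382 was called at 1.52.

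Over the wider list of growth and meristem regulators, 10 of 34 rose (29.4%) and 2 fell (5.88%), against 3.53% and 2.12% of all genes. Besides the 3 markers, the up-regulated members were a homeobox gene of the WOX group (Aco023084, 1.13 ± 0.11), HD-Zip Aco002750 (1.07), both LIGHT-DEPENDENT SHORT HYPOCOTYLS genes (Aco031856 at 1.77 and Aco008960 at 1.12), a growth regulatory factor (Aco020046, 1.03), a PHD finger gene (Aco014382, 1.916) and the OVATE gene Aco018275 (1.23). Of these, 5 lost the call when 1 library was left out. HD-Zip Aco002750 came to 0.99 and OVATE Aco018275 to 0.88 without water replicate 1. Aco008960 came to 0.86 without ethephon replicate 3 and 0.97 without water replicate 1, the PHD finger gene lost the call without ethephon replicate 3, and the growth regulatory factor Aco020046 came to 0.77 without ethephon replicate 1 and 0.93 without water replicate 2. A second OVATE gene went the other way. OVATE Aco015523, of a family of transcriptional repressors, had 0, 0 and 0.13 CPM in ethephon apices and 5.22, 5.09 and 5.55 CPM in water apices and was at least 4.68-fold lower (adjusted p = 1.54e-08). The 14-3-3 gene Aco018444, of a protein family that binds FT in rice, had a log2 fold change of -1.38 and lost the call without ethephon replicate 3 or water replicate 1. Aco031856 (0.28), Aco008960 (0.94) and the 14-3-3 gene (-0.20) were not called with the water libraries of day 5, while OVATE Aco015523 was. The other 5 OVATE genes were not called, and the list held 11 up-regulated and 2 down-regulated members with the water libraries of day 5.

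**Figure D2:**
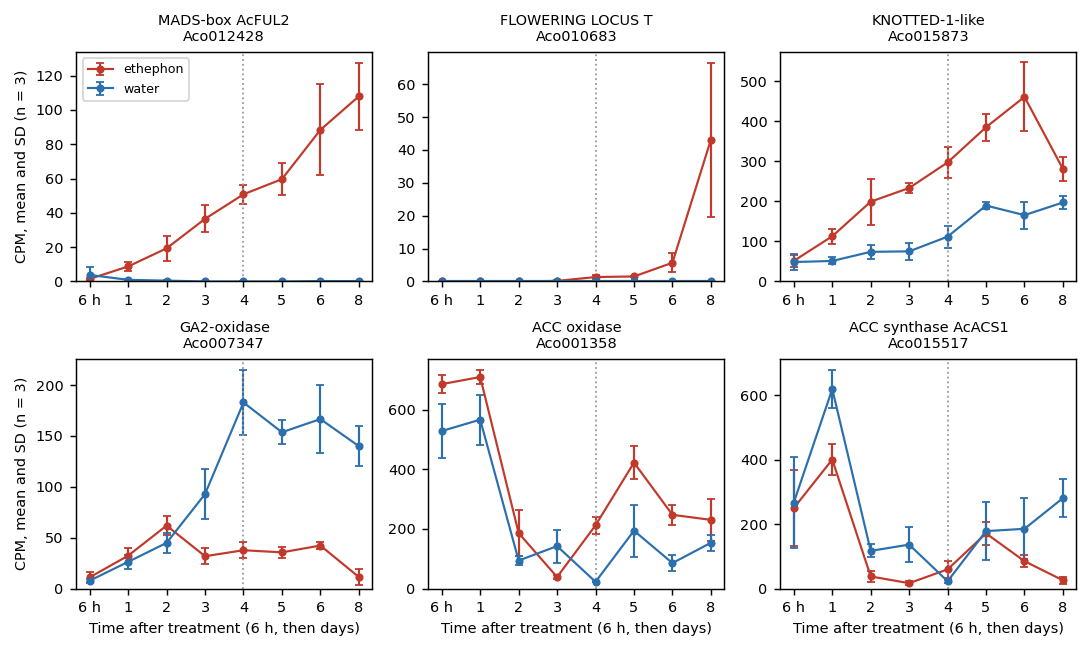
Mean CPM with SD (n = 3 libraries) of 6 genes over the 8 apex samplings in ethephon and water apices, scaled with TMM factors over the 48 apex libraries. The dotted line marks day 4. For ACC oxidase and AcACS1 the ethephon apices are at their lowest on day 3. AcFUL2, FT and KNOTTED-1-like part from water through the ethephon apices, GA2-oxidase parts from day 3, when ethephon apices had 31.8 CPM after 61.9 CPM on day 2 and water apices 92.9 CPM after 44.9 CPM, and for ACC oxidase and AcACS1 the water apices are at their lowest on day 4.

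Of 7 ethylene synthesis genes tested, 3 were up-regulated (42.9%) and none down-regulated, against 3.53% and 2.12% of all genes. ACC oxidase Aco001358 (LG02 from 12013620 to 12016290, minus strand), which makes the last step, had 233, 185 and 235 CPM in ethephon apices and 25.2, 20.8 and 23.7 CPM in water apices. The log2 fold change was 3.23 ± 0.12 (adjusted p = 1.63e-20), or 9.38-fold, and no library overlapped. Its exons overlap those of Aco001359. ACC synthase AcACS1 (Aco015517) had 54.4, 38.8 and 89.3 CPM in ethephon apices and 17.7, 26.6 and 26.2 CPM in water apices (1.44 ± 0.18, adjusted p = 1.70e-07). ACC synthase AcACS2 (Aco000276) had 4.50, 3.39 and 3.68 CPM in ethephon apices and 1.35, 1.37 and 1.15 CPM in water apices (1.58 ± 0.40, adjusted p = 0.0030). The third ACC synthase, Aco028694, was higher by 0.50 ± 0.13 (adjusted p = 0.0048), under 2-fold. Of the other ACC oxidase genes, Aco015240 had 238, 223 and 289 CPM in ethephon apices and 239, 319 and 265 CPM in water apices, so the treatments overlapped. Aco005735 and Aco003285 stayed at 2.04 CPM or less and were not called.

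For ACC oxidase and AcACS1 the water apices of day 4 were the lowest of the 8 water samplings. Scaled over the 48 apex libraries, ACC oxidase Aco001358 averaged 212 ± 29.4 CPM in ethephon apices and 22.5 ± 2.16 CPM in water apices on day 4 (SD, n = 3 each), and 422.6 ± 54.02 CPM in ethephon apices and 194 ± 87.3 CPM in water apices on day 5. In the other 7 samplings the mean of water apices lay between 85.4 and 567 CPM. AcACS1 averaged 59.6 ± 26.6 CPM in ethephon apices and 22.8 ± 4.95 CPM in water apices on day 4, and 171 ± 36.9 CPM in ethephon apices and 178 ± 90.8 CPM in water apices on day 5. Ethephon apices were at their lowest on day 3 for both genes, ACC oxidase at 38.6 ± 6.42 CPM and AcACS1 at 16.6 ± 6.86 CPM. Water apices of day 3 averaged 142 ± 55.45 CPM for ACC oxidase and 136 ± 53.4 CPM for AcACS1. From day 4 to day 5 both genes rose in water apices, ACC oxidase by 3.104 and AcACS1 by 2.98 on the log2 scale (adjusted p = 4.38e-09 and 4.11e-08). With the water libraries of day 5, ACC oxidase had a log2 fold change of 0.13, AcACS2 of 0.49 and AcACS1 of -1.54, and the list held 1 up-regulated and 1 down-regulated member.

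Ethylene perception and signalling showed no member past the limits among the 10 tested, and its median log2 fold change was -0.18. The receptor gene Aco010452 had 537, 592 and 666 CPM in ethephon apices and 305, 315 and 350 CPM in water apices, which is 0.89 ± 0.09 (adjusted p = 5.51e-09). The other 4 receptor genes lay between -0.21 and 0.17. CTR1 (Aco007771) was lower by less than 2-fold (-0.40 ± 0.10, adjusted p = 0.0018), as was EIN2 (Aco005120), with 52.1, 58.4 and 51.3 CPM in ethephon apices and 79.9, 79.3 and 76.0 CPM in water apices (-0.55 ± 0.10, adjusted p = 8.39e-05). Of the 3 EIN3/EIL genes, Aco001697 had -0.58 ± 0.09, Aco017871 -0.46 ± 0.09 and Aco015335 0.44 ± 0.21. For EIN2 and for the first 2 EIN3/EIL genes no library overlapped between the treatments, as for 38.6% of all genes tested. In edgeR 7 of the 10 had an unadjusted p under 0.05, as did 7944 of all 21742 genes tested. DESeq2 called none, and 1 member was down-regulated with the water libraries of day 5.

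The AP2/ERTF transcription factors had 13 up-regulated members and 1 down-regulated member of 39 tested (33.3% and 2.56%, against 3.53% and 2.12% of all genes). Their median log2 fold change was 0.64. The AP2 gene Aco006706 had 19.6, 19.97 and 32.9 CPM in ethephon apices and 2.69, 7.05 and 2.49 CPM in water apices (2.63 ± 0.26, adjusted p = 1.36e-09). AP2/ERTF group Xc Aco018224 had 6.74, 5.27 and 6.48 CPM in ethephon apices and 1.18, 0.78 and 1.15 CPM in water apices (2.56 ± 0.37, adjusted p = 1.94e-06). AP2/ERTF group Ib Aco001190 had 59.9, 76.1 and 83.8 CPM in ethephon apices and 30.5, 39.96 and 27.8 CPM in water apices (1.17 ± 0.13, adjusted p = 1.66e-08). By group, 3 of 4 members of group VIIIa rose, as did 2 of 3 of group Ib and 2 of 2 of group Xa, while none of the 5 members of group VIIa and none of the 4 of group VI was called. The factor named ERTF Factor 13 (Aco022651) had 3.07, 3.39 and 2.03 CPM in ethephon apices and at most 0.19 CPM in water apices, at least 4.81-fold higher, and group IIIe Aco006004 was at least 5.10-fold higher. The member that fell, group Xb Aco001318, had 46.2, 54.6 and 72.4 CPM in ethephon apices and 118, 122 and 129 CPM in water apices (-1.07 ± 0.12), and fell short of 2-fold without ethephon replicate 1 (-0.90).

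Several AP2/ERTF calls rested on ethephon replicate 3 or on the day 4 water libraries. In group VIIIa, Aco006567 had 50.1, 107 and 152 CPM in ethephon apices and 46.3, 54.7 and 42.1 CPM in water apices, so the treatments overlapped, and its log2 fold change of 1.13 was 0.66 without ethephon replicate 3. Also in group VIIIa, Aco010545 had 1.00, and 0.42 without that library, and it lost the call too without ethephon replicate 2 or water replicate 1 or 3. Aco012858 had 1.19, and 0.49 without that library, and lost the call too without water replicate 1 or 3. Group VIIIa Aco008323 (1.00) and group Xa Aco017803 (0.92) came out under the limit without it, Aco017803 also without water replicate 2 or 3, as did group Ib Aco005509 (0.98), which also lost the call without water replicate 1. Without ethephon replicate 3, 7 of the 39 members were up-regulated. With the water libraries of day 5, 9 rose and 4 fell. Group Ia Aco016346 and group Xa Aco003196 then had log2 fold changes of -1.69 and -1.57, against 1.45 and 1.26 with the water libraries of their own day. Group Xc Aco018224 had -0.75, group IIIe Aco006004 -0.23, group Ib Aco005509 -0.93, group Xa Aco017803 0.03 and the AP2 gene Aco006706 0.25.

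**Figure D3:**
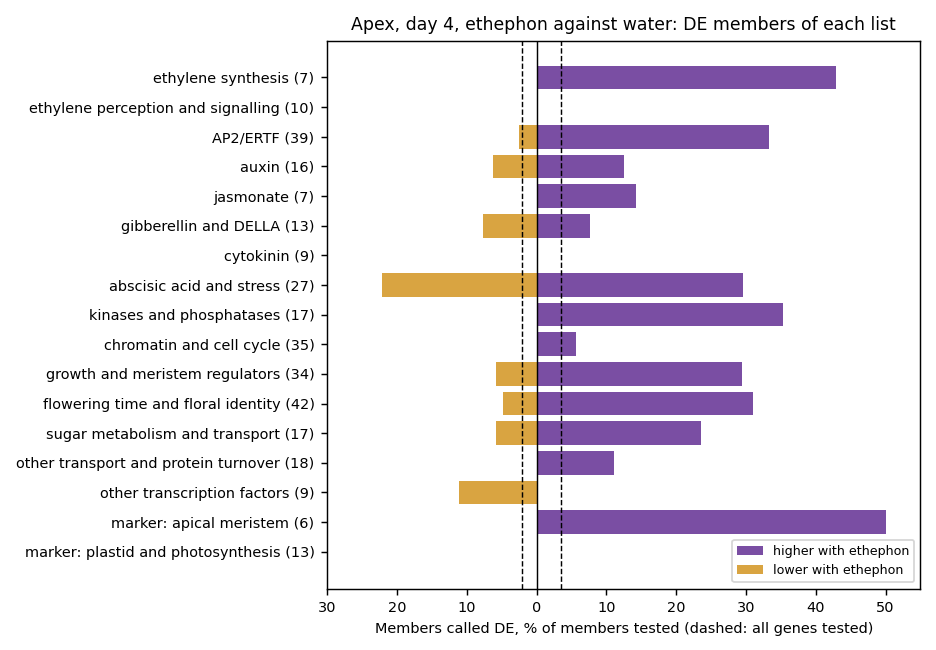
Share of the tested members of each gene list (number in brackets) that were called higher (right) or lower (left) in ethephon apices than in water apices on day 4, in percent. The dashed lines mark the shares over all genes tested, 3.53% higher and 2.12% lower. The bars to the right reach 42.9% for ethylene synthesis, 33.3% for AP2/ERTF and 31% for flowering genes, and no bar stands for ethylene perception, cytokinin or plastid genes. Many list members were named by the study as DE in these same libraries, so high shares were partly set by the choice of members.

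Among 13 gibberellin and DELLA genes, 1 rose and 1 fell (7.69% each, against 3.53% and 2.12% of all genes). GA2-oxidase (Aco007347, LG23 from 3816763 to 3823287, minus strand), which inactivates gibberellin, had 33.9, 48.6 and 33.5 CPM in ethephon apices and 151, 209 and 207 CPM in water apices. Its log2 fold change was -2.33 ± 0.13 (adjusted p = 9.50e-16), or 5.04-fold lower, and every ethephon library lay below every water library. At 6 h and on days 1, 2, 3 and 4 its mean was 11.02, 32.3, 61.9, 31.8 and 37.7 CPM in ethephon apices and 7.74, 26.25, 44.9, 92.9 and 183 CPM in water apices. The means of ethephon apices thus lay above those of water apices through day 2, but the libraries overlapped. No difference was called at 6 h, day 1 or day 2 (log2 fold change 0.50, 0.28 and 0.48). On days 3 and 4 ethephon apices lay below water apices and the gene was called down. Both GA20-oxidase genes, which act in gibberellin synthesis, were not called (Aco002580 at -1.27 and Aco009790 at 1.33, adjusted p = 0.31 and 0.34). The DELLA gene Aco031731, a repressor of gibberellin response, had 2.25, 1.51 and 3.18 CPM in ethephon apices and 1.18, 0.59 and 1.15 CPM in water apices (1.32, adjusted p = 0.044), and leaving out any of 4 libraries ended its call. The other 3 DELLA genes were not called. GA2-oxidase had -2.06 against the water libraries of day 5.

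Of 16 auxin genes 2 rose (12.5%) and 1 fell (6.25%), against 3.53% and 2.12% of all genes. With the water libraries of day 5, 6 auxin genes rose and 2 fell. The one that fell against the water libraries of day 4 was the auxin-associated dormancy factor Aco002473. It had 4.50, 4.90 and 3.18 CPM in ethephon apices and 19.02, 19.4 and 23.4 CPM in water apices (-2.37 ± 0.22, adjusted p = 2.43e-10), and -2.06 with the water libraries of day 5. Its exons overlap those of Aco002472. Genes of its kind mark resting buds in other plants. The efflux carrier Aco009213, of the transporters that set auxin gradients, had 4.90, 3.77 and 9.53 CPM in ethephon apices and 0.67, 1.96 and 1.91 CPM in water apices (2.13 ± 0.39, adjusted p = 6.76e-05), but -0.91 with the water libraries of day 5. The auxin response factor Aco009671 rose by 1.12, and was not called at 0.95 without water replicate 2 or at 0.89 with the water libraries of day 5. The other 6 efflux carriers and the 3 influx transporters were not called. One of 7 jasmonate genes rose (14.3%, against 3.53% of all genes) and none fell. This was the allene oxide synthase Aco000431, an enzyme of jasmonate synthesis, with 2.66, 3.01 and 3.05 CPM in ethephon apices and 0.17, 0.59 and 0.77 CPM in water apices (2.502 ± 0.56, adjusted p = 0.00074). None of the 9 cytokinin genes was called by edgeR or DESeq2. In edgeR 2 of them had an unadjusted p under 0.05, against 7944 of all 21742 genes tested. With the water libraries of day 5, 2 cytokinin genes were down-regulated.

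Genes of abscisic acid and stress went in both directions, 8 up and 6 down of 27 tested (29.6% and 22.2%, against 3.53% and 2.12% of all genes). Of the 6 that fell, 2 were receptor genes and 2 were binding factors of abscisic acid response. The PYR1 receptor gene Aco005513 had 13.49, 10.2 and 12.1 CPM in ethephon apices and 35.3, 32.9 and 32.9 CPM in water apices (-1.48 ± 0.15, adjusted p = 2.87e-09), and the second, Aco018101, had 0.41, 1.13 and 0.64 CPM in ethephon apices and 2.02, 5.88 and 5.74 CPM in water apices (-2.74 ± 0.51, adjusted p = 8.52e-05). Both were called again with the water libraries of day 5, at -1.23 and -2.55. An abscisic acid response binding factor (Aco009346) had -1.06, and -0.88 without ethephon replicate 3. The binding factor Aco015030 rested on at most 3 reads in each ethephon library, was at least 1.75-fold lower, and lost the call without ethephon replicate 3 or water replicate 1. Heat stress transcription factor A-1 (Aco027352) had -1.10, and -0.94 without ethephon replicate 2, and lost the call without water replicate 3 too. The nodulin transporter Aco016031 had -1.13, and -0.99 without ethephon replicate 1. Against the water libraries of day 5 neither binding factor was called (Aco009346 at -0.49, and Aco015030 at -1.16 with adjusted p = 0.29), while Aco027352 and Aco016031 were, and the list held 7 up-regulated and 5 down-regulated members.

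Up-regulated members of this list were led by the late embryogenesis abundant protein Aco002475, of a group that protects cells during drying. It had 20.2, 15.8 and 19.9 CPM in ethephon apices and 1.68, 1.76 and 3.25 CPM in water apices (3.08 ± 0.25, adjusted p = 1.71e-11), and 2.25 with the water libraries of day 5. The early nodulin-like genes Aco007544 (1.69 ± 0.19) and Aco022294 (1.39 ± 0.17), an early responsive to dehydration gene (Aco015870, 2.61 ± 0.49) and calmodulin 4 (Aco001760, 1.212 ± 0.24) also rose with no overlap between the treatments. Aco022294 (0.76) and calmodulin 4 (0.09) were not called with the water libraries of day 5, while Aco007544 (1.14) and Aco015870 (3.16) were. Proton gradient regulation 5 (Aco010143), a stress-responsive homolog of wheat (Aco001681) and the heat stress factor Aco005573 had no read in water apices and at most 1.65 CPM in an ethephon library. Leaving out any 1 water library ended the call of Aco001681 and of Aco005573, the second also without ethephon replicate 2, and DESeq2 called none of these 3 genes. Aco001681 was not called either with the water libraries of day 5 (1.40, adjusted p = 0.33).

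Kinases and phosphatases had 6 up-regulated members (35.3%) and none down-regulated of 17 tested, against 3.53% and 2.12% of all genes. The protein kinase Aco024439 had 22.5, 23.4 and 25.8 CPM in ethephon apices and 1.35, 2.74 and 3.83 CPM in water apices (3.1995 ± 0.24, adjusted p = 2.36e-12). The protein kinase Aco001333 had 118, 106 and 110 CPM in ethephon apices and 30.5, 39.0 and 44.4 CPM in water apices (1.56 ± 0.11, adjusted p = 1.35e-12). The receptor-like kinase Aco003560 spread widely among ethephon apices, with 64.8, 140 and 224 CPM against 31.5, 39.6 and 38.9 CPM in water apices (1.99 ± 0.22, adjusted p = 1.08e-08). Protein phosphatase 2C Aco000522, of a class that restrains abscisic acid signalling, rose by 1.72 ± 0.20, and an acid phosphatase (Aco001653) was at least 3.38-fold higher. The sixth, protein kinase Aco009459, had 1.06, and 0.81 without ethephon replicate 3, 0.98 without ethephon replicate 2 and 0.98 without water replicate 1. Against the water libraries of day 5, Aco024439 kept the call at 1.28, while Aco001333 (0.90), Aco003560 (0.49) and the acid phosphatase Aco001653 (0.55) did not.

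Sugar metabolism and transport had 4 up-regulated members (23.5%) and 1 down-regulated member (5.88%) of 17, against 3.53% and 2.12% of all genes. The trehalose-6-phosphate phosphatase Aco001192, which removes the sugar signal trehalose-6-phosphate, had 17.98, 18.8 and 15.4 CPM in ethephon apices and 4.21, 4.70 and 7.85 CPM in water apices (1.62 ± 0.22, adjusted p = 6.87e-07). The second, Aco004091, had 11.6, 11.7 and 11.3 CPM in ethephon apices and 4.04, 3.92 and 5.55 CPM in water apices (1.35 ± 0.24, adjusted p = 3.45e-05). The trehalose phosphate synthase Aco000950, which makes the same signal, had 1.23, 0.75 and 1.40 CPM in ethephon apices and 4.71, 3.13 and 4.02 CPM in water apices (-1.69 ± 0.41, adjusted p = 0.0019). A monosaccharide transporter (Aco010302, 1.49 ± 0.25) and a sucrose phosphate synthase (Aco017378, 2.07 ± 0.46) also rose. With the water libraries of day 5, 6 members rose and 2 fell, the phosphatase Aco001192 had 2.29 and the synthase Aco000950 -2.97, and the phosphatase Aco004091 was not called at 0.91.

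Of 18 genes of other transport and protein turnover 2 rose (11.1%) and none fell, against 3.53% and 2.12% of all genes. The count of calls was 6 with the water libraries of day 5, 5 without ethephon replicate 1 and 3 without water replicate 1. The nitrate transporter Aco015264 had 30.9, 38.1 and 48.6 CPM in ethephon apices and 1.52, 4.31 and 5.93 CPM in water apices (3.36 ± 0.24, adjusted p = 5.76e-13), and 1.28 with the water libraries of day 5. The formin Aco004882, of the proteins that build actin filaments, had 35.6, 31.6 and 27.9 CPM in ethephon apices and 5.55, 5.29 and 7.28 CPM in water apices (2.38 ± 0.18, adjusted p = 3.33e-12), and 3.35 with the water libraries of day 5. Its exons overlap those of Aco004883. Of the 9 other transcription factors 1 fell (11.1%, against 2.12% of all genes) and none rose. This GATA factor, Aco009467, had 10.0, 6.41 and 7.24 CPM in ethephon apices and 36.5, 34.5 and 20.7 CPM in water apices (-1.94 ± 0.20, adjusted p = 3.31e-09).

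Of 35 chromatin and cell cycle genes 2 were up-regulated (5.71%) and none down-regulated, against 3.53% and 2.12% of all genes. The histone H2A-12 gene Aco014218 had 1.23, 3.01 and 13.2 CPM in ethephon apices and 0.51, 1.18 and 0.77 CPM in water apices (3.02 ± 0.57), and its call ended without ethephon replicate 3 (1.23). The histone H1-3 gene Aco031193 overlapped between the treatments (2.10 ± 0.59) and lost the call without water replicate 1. Neither was called with the water libraries of day 5 (0.42 and 0.31), and 3 other members were. The 5 histone deacetylases, the 2 DNA methyltransferases and the cyclins were not called.

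Some families were drawn only from the part of the study's gene table whose annotation was used here. The genes named from it lie at the start of the gene numbering, from Aco000045 to Aco001023. These lists therefore hold only a part of each family. One of 13 ribosomal protein genes (7.69%), 1 of 24 pentatricopeptide repeat genes (4.17%), 2 of 16 cell wall genes (12.5%) and 1 of 6 MYB genes (16.7%) rose, against 3.53% of all genes. Neither edgeR nor DESeq2 called any of the 9 heat shock and chaperone, 7 bHLH and 4 WRKY genes. Of these, 2, 5 and 1 had an unadjusted p under 0.05 in edgeR, against 7944 of all 21742 genes tested. The pentatricopeptide repeat gene Aco000746 had 12.5, 15.4 and 15.6 CPM in ethephon apices and 4.38, 4.51 and 4.59 CPM in water apices (1.69 ± 0.22, adjusted p = 3.46e-07). The cell wall genes were expansin A4 (Aco000511), which loosens walls, at 2.10 and a pectin acetylesterase gene (Aco000703) at 1.22, the second not called without water replicate 3, and with the water libraries of day 5 neither was called (1.04 and 0.16). Of 35 protein kinase genes with such an annotation, 2 rose (5.71%) and 1 fell (2.86%), against 3.53% and 2.12% of all genes. These were Aco000815 (1.202, not called without water replicate 3), Aco000285 (1.80, not called without ethephon replicate 3 or water replicate 1) and Aco000544 (-2.79, not called without any of 4 of the libraries). Aco000285 (0.48) and Aco000544 (adjusted p = 0.31) were not called with the water libraries of day 5. Of 15 RING and U-box genes 2 rose (13.3%) and 1 fell (6.67%), against 3.53% and 2.12% of all genes. The U-box genes Aco000944 (2.12) and Aco000945 (1.53) overlapped between the treatments. No cell wall, RING or U-box gene was called with the water libraries of day 5. The myb domain protein 78 gene Aco000681 had 9.20, 4.14 and 6.99 CPM in ethephon apices and 0, 0.20 and 0.38 CPM in water apices and was at least 11.5-fold higher (adjusted p = 8.15e-09). In water apices it was up-regulated from day 4 to day 5 by 4.70 (adjusted p = 1.49e-05), and with the water libraries of day 5 its log2 fold change was 0.40.

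The following genes came from the same annotated part of the gene table, not from all genes. Its 10 up-regulated and 10 down-regulated genes with the smallest adjusted p and no overlap between treatments included few regulators. Beta glucosidase 17 (Aco000756), which releases glucose from glucosides, had 444, 431 and 520 CPM in ethephon apices and 60.1, 83.5 and 84.4 CPM in water apices (2.62 ± 0.11, adjusted p = 1.43e-18). A homeobox-leucine zipper gene (Aco000178) had 27.8, 29.8 and 57.5 CPM in ethephon apices and 9.59, 9.99 and 8.81 CPM in water apices (2.07 ± 0.20, adjusted p = 1.19e-09). The ribosomal protein gene L36-2 (Aco000524) had 326, 302 and 347 CPM in ethephon apices and 135, 122 and 132 CPM in water apices (1.33 ± 0.09). A TPR-like gene (Aco000470, 1.61), a sulfite exporter (Aco000275, 1.32), a Rossmann-fold gene (Aco000232, 1.08), fatty acid desaturase 2 (Aco000748, 1.08), profilin (Aco000410, 1.07) and a translationally controlled tumor protein gene (Aco000662, 1.03) completed the up-regulated set with Aco000681. Fatty acid desaturase 2, profilin and the tumor protein gene came to 0.88, 0.92 and 0.94 without ethephon replicate 3, profilin also to 0.99 without water replicate 2, and the tumor protein gene to 1.00 without water replicate 1. Beta glucosidase 17 had 0.99, the ribosomal protein gene 0.90 profilin 0.42, the sulfite exporter -0.26 and the tumor protein gene -0.01 with the water libraries of day 5.

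Among the down-regulated annotated genes, phosphomethylpyrimidine synthase (Aco000480), an enzyme of thiamine synthesis, had 6.95, 8.29 and 6.10 CPM in ethephon apices and 18.8, 22.7 and 20.7 CPM in water apices (-1.59 ± 0.19, adjusted p = 5.88e-08). The nuclear transcription factor Y subunit C-1 gene (Aco000611) had 15.7, 6.41 and 9.27 CPM in ethephon apices and 24.1, 29.0 and 26.2 CPM in water apices (-1.29 ± 0.19, adjusted p = 3.69e-06). Tubulin alpha-6 (Aco000273) had 4.90, 4.90 and 8.26 CPM in ethephon apices and 14.98, 13.1 and 18.8 CPM in water apices (-1.29 ± 0.22, adjusted p = 2.94e-05). These 3 genes kept their calls whichever single library was left out, but tubulin alpha-6 was not called with the water libraries of day 5 (-0.92). A long-chain-fatty-acid-CoA ligase (Aco000289, -1.24), an ABC transporter (Aco000353, -1.12), a protein phosphatase 2C (Aco000771, -1.66) and a RING/U-box gene (Aco000380, -1.23) also fell, but the ligase lost the call without ethephon replicate 3, the phosphatase without water replicate 1 and the RING/U-box gene without ethephon replicate 2 or water replicate 3. An MLP-like protein gene (Aco000963) and the AN1-type zinc finger gene (Aco000985) had no read in ethephon apices and 1.18 CPM or less in water apices, and both lost the call without ethephon replicate 3 or water replicate 1, Aco000985 also without water replicate 2. The ligase (0.17), the ABC transporter (-0.79), the RING/U-box gene (-0.58) and Aco000985 (adjusted p = 0.14) were not called with the water libraries of day 5.

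Genes with no name in the sources were among the strongest. Aco008677 (LG09 from 1497576 to 1498877) had 318, 332 and 445 CPM in ethephon apices and 23.9, 30.8 and 23.2 CPM in water apices (3.82 ± 0.13, adjusted p = 4.44e-21), or 14.1-fold. Aco010028 (LG10 from 2309399 to 2312777) had 58.9, 48.6 and 63.0 CPM in ethephon apices and 2.02, 1.76 and 2.30 CPM in water apices (4.81 ± 0.19, adjusted p = 2.36e-19). In the other direction, Aco017174 (LG18 from 608021 to 608317) had 141, 151 and 122 CPM in ethephon apices and 488, 466 and 443 CPM in water apices (-1.76 ± 0.10, adjusted p = 7.31e-16). Aco010380 (LG03 from 1719345 to 1725888) had 37.6, 53.5 and 34.4 CPM in ethephon apices and 165, 164 and 148 CPM in water apices (-1.98 ± 0.12, adjusted p = 7.87e-15). Aco017174 was not called at -0.91 with the water libraries of day 5, and the other 3 were.

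**Figure D4:**
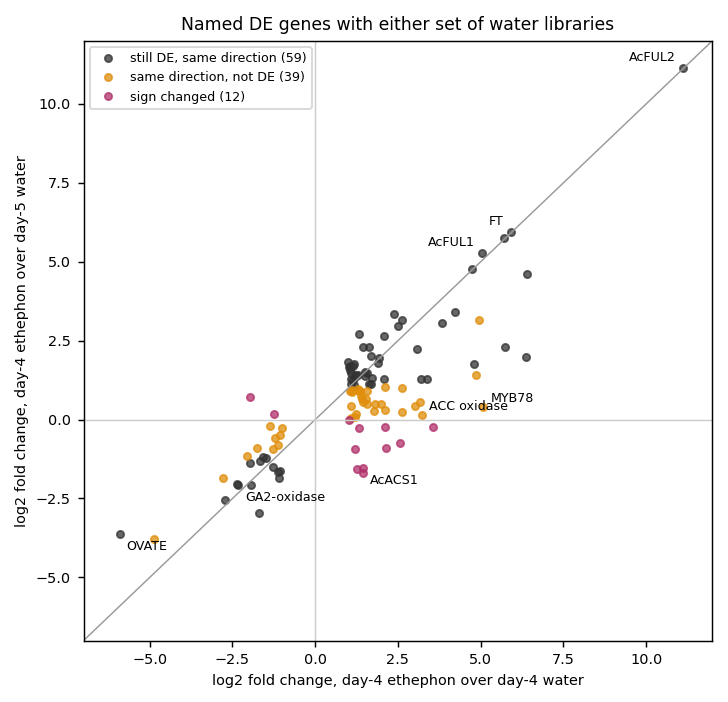
Fitted log2 fold change of day 4 ethephon apices over water apices of day 4 (x axis) and over water apices of day 5 (y axis) for 110 of the 111 named DE genes; each point is a gene and the line marks equal values. Of these, 59 kept the call, 39 kept the direction but not the call and 12 changed sign, with AcFUL1, AcFUL2 and FT on the line and ACC oxidase, AcACS1 and MYB78 (the myb domain protein 78 gene) far below it.

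The ethephon effect at the apex on day 4 was compared with that of the samplings before and after it. It differed from that of day 5 for 140 genes (0.62% of 22580), and from that of day 3 for 2832 genes (12.6% of 22435), by edgeR's interaction term with the same limits. The first count was 28 with the CPM filter, 232 with a replicate block and 436 without replicate 1. Of the day 4 up-regulated genes, 368 were also up-regulated on day 5, which is 47.9% of those of day 4 and 43.6% of those of day 5, and 1 was down-regulated. On day 3, 210 of the day 4 up-regulated genes were up-regulated (27.3% of those of day 4 and 13.4% of those of day 3) and 190 were down-regulated. Of the day 4 down-regulated genes, 111 (24%) were also down-regulated on day 5 and 1 was up-regulated. On day 3, 99 of them (21.4%) were down-regulated and 26 were up-regulated. Each sampling had its own water apices.

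By edgeR no member of the flowering list was called different in effect between day 4 and day 5, where 6 of 43 had an unadjusted p under 0.05, and none of the 6 meristem markers was, where 1 had. Between day 4 and day 3, 12 of 42 flowering genes and 3 of 6 markers differed. For AcFUL2 these differences could not be estimated, since no water apex of the 3 days held a read. AcFUL1 (Aco004839) had a log2 fold change of 5.04 on day 4 against 3.06 on day 3 (difference 2.01 ± 0.44, adjusted p = 0.0010) and 5.22 on day 5. FLORICAULA/LEAFY (Aco019058) had 0.35 on day 4 against 1.75 on day 3 (adjusted p = 0.00092 for the difference), and the WUSCHEL homolog Aco015382 had 1.51 on day 4 against 3.72 on day 3 (adjusted p = 0.0022). Growth and meristem regulators had 15 of 34 members with a lower and 2 with a higher effect on day 4 than on day 3, where lower effects made up 5.46% and higher effects 7.16% of all genes tested. The opposite was seen among AP2/ERTF genes, with 14 of 39 higher and 7 lower on day 4. Members of both lists were named by the study, many as DE in these samplings, so these shares are not independent of that choice.

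Of the 7 ethylene synthesis genes, 3 were called different in effect between day 4 and day 3. ACC oxidase Aco001358 had a log2 fold change of 3.23 on day 4 against -1.89 on day 3, a difference of 5.15 ± 0.29 (adjusted p = 8.22e-14). AcACS1 had 1.44 on day 4 against -2.98 on day 3, a difference of 4.42 ± 0.38 (adjusted p = 2.91e-10), and AcACS2 1.58 against -1.66, a difference of 3.26 ± 0.61 (adjusted p = 1.44e-04). Against day 5, the effect on day 4 was larger by 2.13 ± 0.29 for ACC oxidase (adjusted p = 1.50e-04) and by 1.51 ± 0.38 for AcACS1 (adjusted p = 0.043). In all, 19 named genes rose on day 4 and fell on day 3, with a tested difference.

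**Figure D5:**
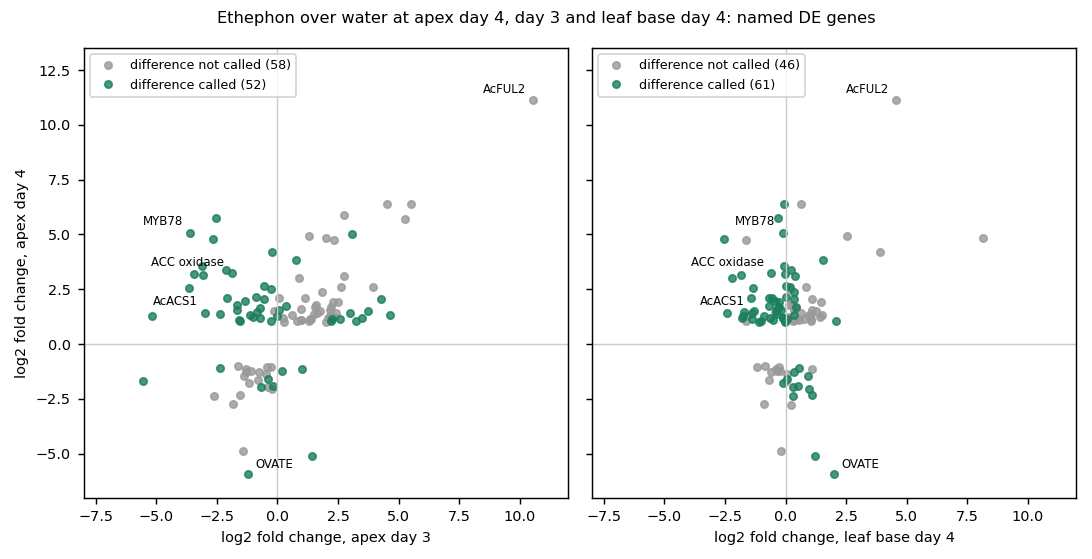
Fitted log2 fold change of ethephon over water at the apex on day 4 (y axis) and at the apex on day 3 (left, 110 genes) or the leaf base on day 4 (right, 107 genes) for the named genes that were DE at the apex on day 4. Green points are genes whose effects differed by the interaction test, 52 on the left and 61 on the right. On the left, ACC oxidase, AcACS1 and MYB78 lie at the upper left, up on day 4 and down on day 3.

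At the leaf base, the basal tissue of a mature leaf, ethephon gave 309 up-regulated (1.4%) and 492 down-regulated genes (2.23%) on the same day. At the apex it gave more up-regulated genes, 768 (3.53%), and slightly fewer down-regulated genes, 462 (2.12%). The effect at the apex differed from that at the leaf base for 1682 genes (7.38% of 22796), and for 1048 without replicate 2. Of the day 4 up-regulated apex genes, 43 were also up-regulated at the leaf base and 64 were down-regulated there. Of the down-regulated apex genes, 16 were also down-regulated at the leaf base and 17 were up-regulated there. AP2/ERTF genes had 19 of 39 members with a higher effect at the apex and 1 with a lower one, against 4.35% and 3.03% of all genes. Most of this list came from factors that the study reported as DE in these same apex and leaf base samplings. The excess over all genes was thus partly set by the choice of members. ACC oxidase Aco001358 had 3.23 at the apex against -0.58 at the leaf base, a difference of 3.83 ± 0.24 (adjusted p = 1.68e-09). AcACS1 had 1.44 against -1.37, a difference of 2.81 ± 0.41 (adjusted p = 6.97e-05). The PYR1 receptor gene Aco005513 had -1.48 at the apex against 0.93 at the leaf base (adjusted p = 1.05e-06 for the difference), and the dormancy factor Aco002473 -2.37 against 0.31 (adjusted p = 1.37e-06). No apical meristem marker was called different between the tissues by edgeR, and 2 of 6 had an unadjusted p under 0.05. This does not show that the effects were alike, since the WUSCHEL homolog Aco006233 had no read at the leaf base on day 4. At the apex and the leaf base, Aco015873 had 1.40 and -0.42, Aco004983 1.43 and 0.65, and Aco015382 1.51 and 1.26.

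In the other 7 apex samplings, from 6 h to day 8, the share of genes called up was 1.86%, 7.7%, 9.76%, 7.2%, 3.83%, 3.46% and 2.82%, and the share called down was 1.87%, 3.63%, 5.34%, 7.19%, 1.23%, 2.59% and 4.73%. Over the 8 apex samplings, 30 of the day 4 DE genes were called in the same direction in 7, 27 up and 3 down, and none in all 8, while 151 up-regulated and 152 down-regulated genes were called in that direction on day 4 alone. The 7-sampling group held AcFUL1, AcFUL2, AGAMOUS-like 14, AGAMOUS-like 31, SQUAMOSA protein-like 8, AP2/ERTF group Ib Aco001190, formin Aco004882, the late embryogenesis abundant protein Aco002475 and, among those that fell, the dormancy factor Aco002473. In the 8 samplings from 6 h to day 8, AcFUL2 averaged 1.48, 8.74, 19.3, 36.5, 50.8, 59.6, 88.4 and 108 CPM in ethephon apices, and at most 3.79 CPM at 6 h and 0.94 CPM later in water apices. FLOWERING LOCUS T was at 0 CPM in ethephon apices through day 2 and averaged 0.17, 1.34, 1.52, 5.68 and 43.1 CPM from day 3 to day 8, and no water apex of any sampling held a read of it. GA2-oxidase was first called lower on day 3 (-1.53), and day 4 (-2.33) lay between that and day 8 (-3.67).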

How the data were processed

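Stem apices and leaf bases were profiled by RNA-seq, and the 6 apex libraries of day 4 were used here with the other samplings for comparison. Per the labels and the study's methods, the authors trimmed reads with Trimmomatic 0.36, aligned them with HISAT2 2.0.5 to Acomosus_321_v3 and deposited featureCounts 1.6.0 counts per gene. Multi-mapping pairs were counted and strand was not used, so genes with overlapping exons or near-identical copies share reads.

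Counts were tested with edgeR 4.0.16 (quasi-likelihood, TMM, R 4.3.3) on genes with at least 1 count over the libraries of a fit. Groups came from the sample titles. Differences of effects were tested as the interaction term of a 12-library design, and with 3 libraries a treatment the p-values measure the spread between pools of plants. Where every library of a treatment held 3 counts or fewer, a fold is a bound set at 3 counts in its shallowest library, which covers counting error only. Standard errors were derived from the fold change and the F statistic. Alternatives were the edgeR exact test, DESeq2 1.42.0, RLE factors, a filter at 1 CPM in 3 libraries, a joint fit, a replicate block, leaving out each library and other limits, and, chosen after seeing the data, the water libraries of day 5. The fits were tested on simulated data.

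The members and gene lists were chosen with earlier results of these data known. Genes named are every DE list gene, the members of the ethylene, FT, TERMINAL FLOWER, FUL, SOC1, CONSTANS, WUSCHEL, KNOTTED and marker genes, the 10 annotated genes with the smallest adjusted p in each direction whose libraries did not overlap, and 2 genes with no name in each direction. Gene names came from the study's text and from a part of its gene table. The genes named here only through that table have identifiers from Aco000045 to Aco001023. A gene without a name here can therefore have one in the study. Sequences were not used here.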

Additional observations from a re-analysis of the deposited data

Results flagged for a closer look

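The effect of ethephon at the apex on day 4 differed from that of another sampling, by edgeR's interaction term, for 2832 genes against the apex on day 3, for 140 genes against the apex on day 5 and for 1682 genes against the leaf base on day 4. All differences below are log2 fold changes on day 4 at the apex minus those of the other sampling. Each sampling had its own water libraries, and those of day 4 at the apex are the ones that differed from the water libraries of day 5 in 893 genes.

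Against day 5, the named genes with a larger effect on day 4 were Aco000681 (4.09), Aco018224 (2.75), Aco010028 (2.44), ACC oxidase Aco001358 (2.13), Aco024439 (1.63), AcACS1 Aco015517 (1.51), Aco003196 (1.41) and Aco008677 (1.30). Those with a lower value on day 4 were Aco010545 (-1.97), Aco006567 (-1.94), the GATA factor Aco009467 (-1.47) and the dormancy factor Aco002473 (-1.29).

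Against day 3, genes up-regulated on day 4 and down-regulated on day 3 differed by 8.71 for Aco000681, 7.44 for Aco010028, 6.70 for Aco006004, 6.64 for Aco024439, 6.45 for Aco003196, 6.28 for Aco001653 and 6.26 for Aco018224. The difference was 5.49 for the nitrate transporter Aco015264, 5.15 for ACC oxidase Aco001358, 4.42 for AcACS1 Aco015517, 4.22 for Aco031193, 3.73 for Aco004091, 3.46 for Aco000285, 3.33 for Aco003560 and 3.26 for AcACS2 Aco000276. It was 2.72 for Aco017803, 2.64 for Aco009476, 2.46 for Aco000275 and 2.29 for Aco000703. The ABC transporter gene Aco000353 went the other way, with -2.09.

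Against the leaf base on the same day, genes that rose in the apex but fell in the leaf differed by 5.30 for Aco014218, 3.197 for Aco016346, 3.06 for Aco005509, 3.02 for Aco003196, 2.89 for Aco000945, 2.81 for AcACS1 Aco015517, 2.53 for Aco006567 and 2.10 for Aco009459.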

How the results depend on the processing

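Depth and replicate number limit the low genes, and lane and treatment cannot be told apart. The 1230 DE genes became 1255 with the edgeR exact test, 1227 with RLE factors, 1152 with the CPM filter, 974 in a joint fit and 952 with DESeq2, which called 303 down. Leaving out 1 library gave 990 to 1348. Without the fold limit 6023 genes passed (3074 up, 2949 down), and above a log2 fold change of 2 in size 281 did (204 up, 77 down). Of the list genes, 206 passed without the fold limit (137 up, 69 down) and 35 above 2 (29 up, 6 down), DESeq2 called 11 down and the water libraries of day 5 gave 26 down. The day 3 difference held 4642 genes without the fold limit. The day 5 difference held 28 genes with the CPM filter, 232 with the replicate block and 135 to 436 with 1 replicate number left out (436 without replicate 1, 267 without replicate 3). The leaf base difference held 2833 genes without the fold limit and 1048 to 1982 with 1 replicate number left out (1048 without replicate 2).

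The study's field held 3 replications with both treatments, but the sources used here do not say whether the labels' replicate numbers follow them, and same-numbered libraries hardly deviated together (correlations 0.058, -0.013 and 0.028 over 17138 genes). The replicate block gave 1130 DE genes (714 up, 416 down), 84 of them in the lists, and differences of 2816 (day 3) and 1678 (leaf base). Under the block the call ended for GIGANTEA-like Aco014347 (-0.997), Aco010545 (0.87), Aco011880, Aco001681, Aco005573, Aco000544, Aco008339, Aco031731 and Aco000985 (adjusted p 0.056 to 0.11 for the last 7).

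With the water libraries of day 5 the sign changed for Aco015517 (-1.54), Aco018224 (-0.75), Aco016346 (-1.69), Aco003196 (-1.57), Aco009213 (-0.91), Aco006004 (-0.23), Aco000944 (-0.25), Aco005509 (-0.93), Aco008339 (0.71), Aco000662 (-0.008), Aco000275 (-0.26) and Aco000289 (0.17). Leaving out 1 library changed the sign of 9 genes that were not DE, with ranges of -0.03 to 0.16 for Aco010603, -0.46 to 0.58 for Aco024515, -0.05 to 0.082 for Aco000045, -0.39 to 0.17 for Aco000248, -0.18 to 0.035 for Aco000484, -0.08 to 0.18 for Aco000596, -0.25 to 0.069 for Aco026137, -1.29 to 1.498 for Aco014592 and -0.12 to 0.024 for Aco017449. The cause was not tested.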

Other observations

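The next gene along the linkage group was also up-regulated for 7.47% of the up-regulated genes, against 3.06% of all genes, and 66 of 89 neighbouring pairs of DE genes went in the same direction. Without pairs that share exons it was 63 of 85.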
